A study of Mus musculus with 2 samples.

Results

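The proteasome and ubiquitin enzyme genes were taken by symbol: every probe whose single gene symbol in the platform table begins with Psma, Psmb, Psmc, Psmd, Psme, Ube2, Uba and a digit, Usp and a digit, or Uch. This gave 44 probes of 8014 and 42 genes of 4331. RefSeq lists 151 protein-coding mouse genes with such symbols, so most of the family was not measured, and no Uch gene was. The 42 genes fell into 9 core subunits of the proteasome, 7 subunits of its regulatory particle, 4 immunoproteasome genes, the activator gene Psme3, the gene Psme2b, 2 activating, 8 conjugating and 10 deubiquitinating enzymes.

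The RNA was that of CD4+ alpha beta T cells sorted from spleens of LatY136F mice and of wildtype mice. LatY136F carries a substitution of 1 tyrosine in Lat, the membrane adaptor through which the T cell receptor reaches phospholipase C. Cells were selected on magnetic beads against CD4 and by flow sorting, and total RNA of both genotypes was hybridised together on each of 2 two-colour arrays with the dyes reversed. The labels used here do not give the age, sex or number of the mice, any treatment, or whether the arrays held separate RNA extracts. The arrays were therefore counted as 1 biological comparison, and no gene carries a p-value.

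Values are log2 ratios of LatY136F over wildtype, and ± stands for 0.5 times the distance between the array values, an error that may be purely technical. The table holds ratios and no signals, so neither the level of a transcript nor the brightness behind a ratio is known, and only 2 arrays stand behind each value. The deposited numbers were read as log10 ratios of channel 2 over channel 1, which is likely and not stated. Under the opposite reading every higher value below becomes lower, and read as log2 every ratio shrinks by a factor of 3.32. Gata3, the transcription factor of T helper 2 cells, stood at 2.93 ± 0.02 in this direction, as published accounts of these mice describe, while the cytokine gene Il4 was at 1.41 on array 1 but at -0.97 on array 2. Lat itself stood at -0.17 ± 0.004, which does not check the genotype because the mutation changes 1 residue of the protein.

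Proteins are marked for destruction by ubiquitin, a small protein that an activating enzyme (E1) passes to a conjugating enzyme (E2) and a ligase (E3) attaches to the target. The proteasome is a barrel of alpha and beta rings, the core particle, capped by a regulatory particle whose ATPases unfold tagged proteins and feed them in. In lymphocytes and in cells exposed to interferon gamma, the catalytic beta subunits can be replaced by the immunoproteasome subunits, which change the peptides made for display on MHC class I. Deubiquitinating enzymes remove ubiquitin again, and ligases and deubiquitinating enzymes set the threshold of T cell activation in mice.

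Ratios of these genes were small. Of the 42, 1 (Usp28) was lower by 2-fold or more on each array and none was higher by that much, where 0.97% of all genes were that much lower and 4.2% that much higher. At 1.5-fold, a log2 ratio of 0.585, Usp28 was lower and Ube2c higher, while 2.93% of all genes were lower and 7.83% higher. Over both directions 10.8% of all genes passed 1.5-fold and 5.17% passed 2-fold. A count of 1 in 42 cannot be set apart from these shares. Array 2 alone put Usp15 past 1.5-fold as well, giving 2 higher members, and Usp33, giving 2 lower members.

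The median of the 42 mean ratios was 0.04, against 0.0004 over all genes, and 39 of the 42 (92.9%) lay within 0.5 of 0, against 79.1% of all genes. The median size of a mean ratio, without its sign, was 0.14 for the 42 genes and 0.21 for all genes. The arrays also lay close together here, with a median of 0.10 for 0.5 times their difference, against 0.15 over all genes. The sign was the same on both arrays for 22 of the 42 genes (52.4%), against 55.8% of all genes, so for the other 20 members no direction can be read. Over the 42 genes Pearson's r between array 1 and array 2 was 0.72; it was 0.29 without Usp28, 0.13 without Usp28 and Ube2c, and 0.33 over all genes. Genes on an array share its RNA and its dyes and are not replicates, so these correlations only describe the arrays.

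**Figure D1:**
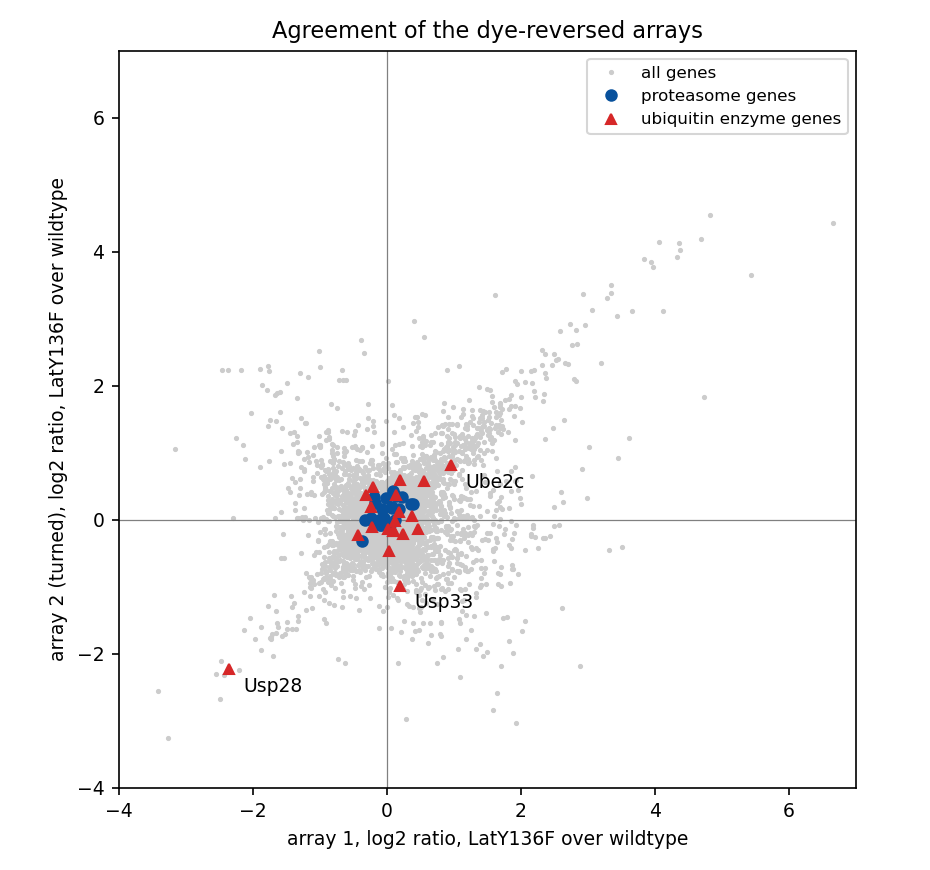
Log2 ratio of LatY136F over wildtype on array 1 (horizontal axis) and on array 2 after its sign was turned (vertical axis), for all 4331 genes in grey, 22 proteasome genes as circles and 20 ubiquitin enzyme genes as triangles. Usp28 lies far down the diagonal at -2.36 and -2.23, Ube2c stands at 0.95 and 0.82, Usp33 is low on array 2 only, and the proteasome genes sit close to the origin.

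The stretches of DNA just before the annotated starts of the 3 genes with a mean ratio beyond 0.5 in size are shown, because these genes carry the differences reported below, followed by the stretch that Psmb9 shares with Tap1. Sequences are RefSeq's, build GRCm38.p6, 5′ to 3′ on the strand of the named gene, and capitals mark CCAAT and, for Ube2c, TTTGAA, each in either orientation. Ube2c lies at chr2:164769679-164769928 on the plus strand, Ube2l3 at chr16:17201493-17201742 on the minus strand, Usp28 at chr9:48985135-48985384 on the plus strand and the Psmb9 stretch at chr17:34187331-34187555 on the minus strand.
Ube2c: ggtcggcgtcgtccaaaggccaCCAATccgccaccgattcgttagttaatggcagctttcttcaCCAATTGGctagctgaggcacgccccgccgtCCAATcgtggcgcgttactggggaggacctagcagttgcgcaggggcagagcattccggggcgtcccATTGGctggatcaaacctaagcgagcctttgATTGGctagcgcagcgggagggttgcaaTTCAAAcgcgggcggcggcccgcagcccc
Ube2l3: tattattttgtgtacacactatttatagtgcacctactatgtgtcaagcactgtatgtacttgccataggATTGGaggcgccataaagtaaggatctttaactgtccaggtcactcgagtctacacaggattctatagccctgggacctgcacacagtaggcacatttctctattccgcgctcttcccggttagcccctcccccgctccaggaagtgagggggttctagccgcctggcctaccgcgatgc
Usp28: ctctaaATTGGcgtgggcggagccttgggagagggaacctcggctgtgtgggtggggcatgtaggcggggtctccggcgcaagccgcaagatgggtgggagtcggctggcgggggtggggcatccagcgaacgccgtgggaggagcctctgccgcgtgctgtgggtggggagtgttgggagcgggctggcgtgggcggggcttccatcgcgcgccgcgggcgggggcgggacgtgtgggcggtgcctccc
Psmb9: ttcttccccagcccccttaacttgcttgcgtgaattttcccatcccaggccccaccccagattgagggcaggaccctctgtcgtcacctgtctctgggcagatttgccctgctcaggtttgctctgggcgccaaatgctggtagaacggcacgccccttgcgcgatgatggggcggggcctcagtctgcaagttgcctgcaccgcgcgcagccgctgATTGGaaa

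CCAAT is the box bound by the factor NF-Y, and TTTGAA is the core of the cell cycle homology region found before many genes of mitosis. Windows of 250 bases before to 50 after a start were searched on both strands; a match is a description and not a site. The Ube2c window held 6 CCAAT matches, 2 of them overlapping, and 1 TTTGAA match 29 to 24 bases before the start. At least 6 CCAAT matches were found in 26 of 32851 mouse promoter windows (0.0791%), and no other member's window held more than 3. TTTGAA alone was found in 17.9% of all windows and in 4 of the 39 windows of members (10.3%), those of Uba3, Uba7, Ube2c and Usp40. CCAAT and TTTGAA occurred together in 1 of the 39 windows of members and in 6.95% of all windows. Ube2l3 and Usp28 each had 1 CCAAT match and no TTTGAA. At least 1 CCAAT match was common, in 35.9% of member windows and 37.4% of all windows.

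Genes of the core particle lay near 0. None of the 9 was 1.5-fold apart, 7 had a mean above 0, and their median was 0.13, with 0.07 on array 1 and 0.20 on array 2. Among the alpha subunits, which form the outer rings and the gate, Psma7 was highest, at 0.09 on array 1 and 0.42 on array 2 (0.26 ± 0.17). Psma2 was lowest, at -0.22 and -0.01 (-0.11 ± 0.10). Psma1 (0.13), Psma3 (0.06) and Psma5 (0.04) stood between them, the last 2 with opposite signs on the arrays.

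Of the beta subunits, Psmb5, which carries the chymotrypsin-like site, was highest, with 0.36 on array 1 and 0.23 on array 2 (0.29 ± 0.06). Psmb6, which carries the caspase-like site, was lowest, with -0.11 and -0.08 (-0.09 ± 0.01). The 2 genes thus lay on opposite sides of 0 on both arrays. The structural subunits Psmb1 (0.17 ± 0.01) and Psmb2 (0.16 ± 0.17) stood between them.

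The regulatory particle gave a median of 0.005 over 7 genes, with -0.04 on array 1 and 0.03 on array 2. None was 1.5-fold apart. The 5 ATPase genes ranged from Psmc6, at -0.08 on each array, to Psmc2, at 0.38 on array 1 and 0.24 on array 2 (0.31 ± 0.07). Psmc3 was also above 0 on both arrays (0.24 ± 0.11), while Psmc1 (0.05) and Psmc4 (0.005) changed sign between them. Of the non-ATPase genes, Psmd4, which encodes a ubiquitin receptor of the proteasome, stood at -0.32 and -0.01 (-0.17 ± 0.16), and Psmd3 at -0.04 and 0.03 (-0.01 ± 0.03).

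The 4 immunoproteasome genes did not move as a group. Psmb8, the subunit that replaces Psmb5, stood at 0.23 on array 1 and 0.35 on array 2 (0.29 ± 0.06), and its 2 probes gave means of 0.28 and 0.30. Psmb10 stood at 0.08 and 0.17 (0.13 ± 0.04) and takes the place of Psmb7, which was not measured. Psmb9, which replaces Psmb6, stood at -0.09 and 0.01 (-0.04 ± 0.05). Psme1, a subunit of the PA28 activator that opens the core for peptide release, was the lowest proteasome gene of all, at -0.38 and -0.32 (-0.35 ± 0.03, 1.27-fold lower). The 4 genes thus held both a member above 0 and a member below 0 on both arrays, with a median of 0.04.

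Psme2b, a near-identical copy of the other PA28 gene Psme2, stood at -0.24 and 0.03 (-0.10 ± 0.13). Its probe may also bind Psme2 RNA, so it was counted apart; with it the immunoproteasome median became -0.04. Psme3, the nuclear member of the PA28 family, gave -0.19 on array 1 against 0.35 on array 2, which leaves its direction unknown.

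The ratio of each exchangeable catalytic subunit was also set against that of the subunit it replaces. Psmb8 minus Psmb5 was -0.12 on array 1 and 0.12 on array 2, a mean of -0.004. Psmb9 minus Psmb6 was 0.02 and 0.09, a mean of 0.05. The first difference thus changed sign between the arrays, while the second was above 0 on both. Whether subunits were exchanged was not tested.

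In the mouse genome Psmb9, Tap1, Psmb8 and Tap2 follow each other on chromosome 17, and Psmb9 and Tap1, which encodes a chain of the peptide transporter that loads MHC class I, start from the same stretch of 225 bases on opposite strands, printed above. Tap1 and Tap2 were named after their values were seen, for this position. Psmb9 stood at -0.09 on array 1 and 0.01 on array 2, beside -0.01 and -0.02 for Tap1. Psmb8 stood at 0.23 and 0.35, and Tap2 at -0.14 and 0.40. The genes that share a start region thus both lay within 0.1 of 0 on each array. No promoter window of Psmb8, Psmb9 or Psmb10 held the interferon-stimulated response element searched for, which 3.44% of all windows held. Psme1 held 1 match, after its start, and the regulatory gene Psmd4 held 1 before its start, giving 2 of the 39 member windows (5.13%). Psmb8 held 1 match of TTCNNNGAA, the gamma-activated site, which 8.3% of all windows held. The conjugating gene Ube2d3 held this site as well, again giving 2 of the 39 member windows (5.13%).

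**Figure D2:**
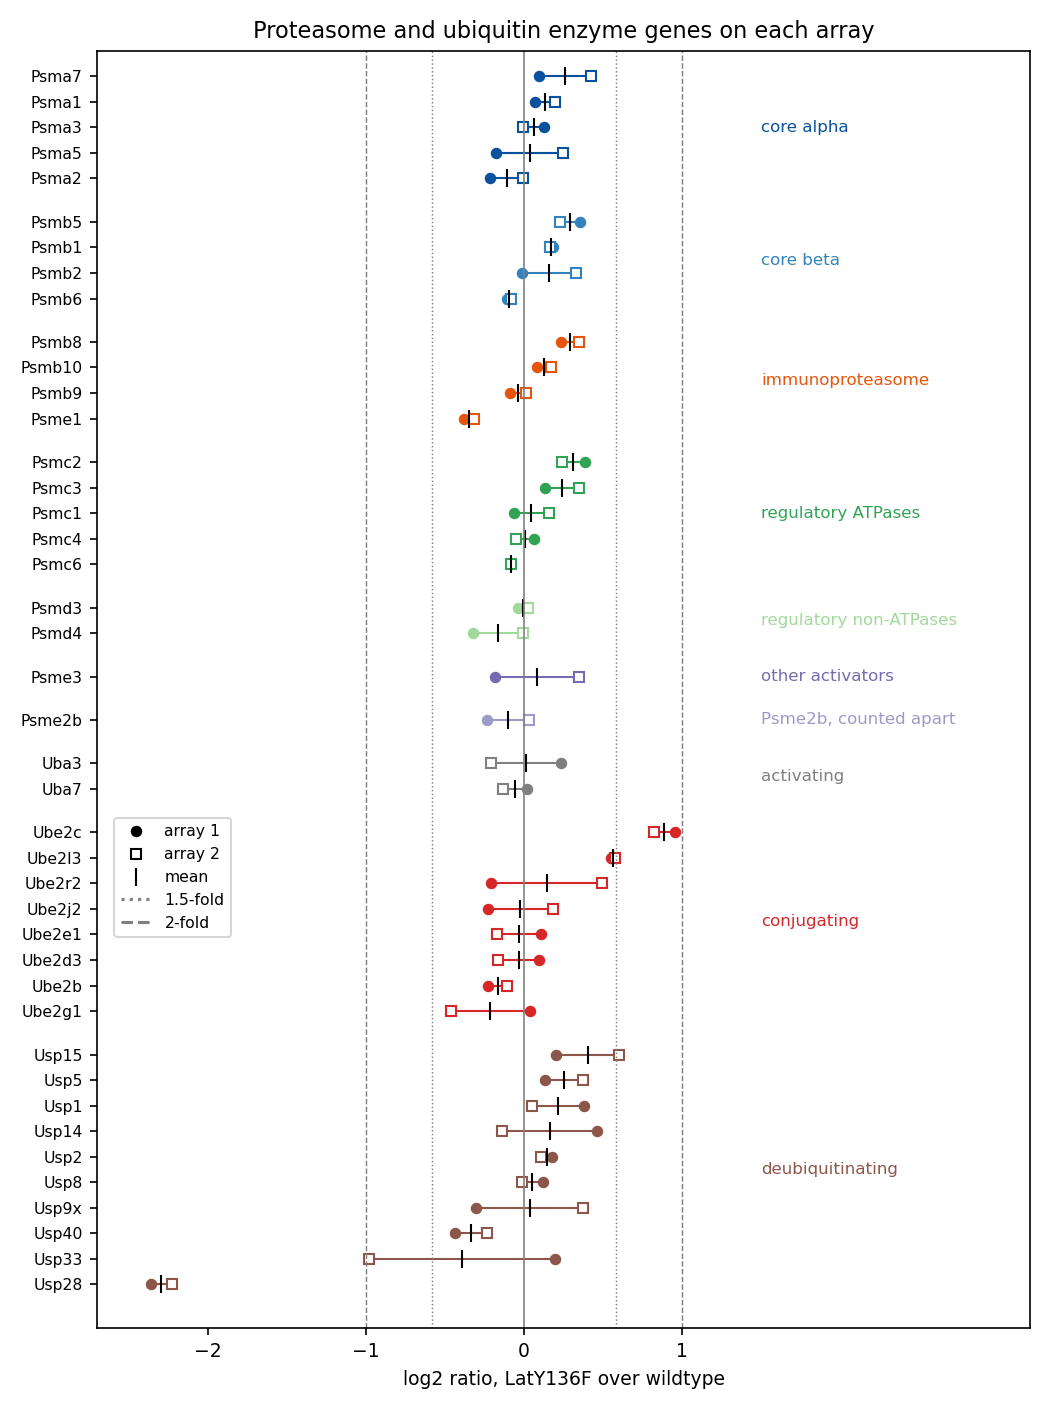
Log2 ratio of LatY136F over wildtype (horizontal axis) for each of the 42 genes, by group, with array 1 as filled circles, array 2 as open squares and the mean as a black tick; dotted lines mark 1.5-fold and dashed lines 2-fold. Usp28 is the only gene beyond 2-fold on both arrays and Ube2c the only one beyond 1.5-fold on the higher side of both, with Ube2l3 just short of that line on both and Usp15 past it on array 2 only.

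All 22 proteasome genes together lay between -0.35 and 0.31, a range that held 66.2% of all genes, and none was called at either threshold. Their median was 0.05, with -0.03 on array 1 and 0.16 on array 2, so the sign of this median was not the same on the arrays. The 20 enzymes of ubiquitin and ubiquitin-like transfer and removal had a median of 0.02 and ranged more widely, from -2.29 to 0.89.

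Both measured E1 genes lay near 0, and both serve ubiquitin-like proteins. Uba3, the catalytic subunit of the NEDD8-activating enzyme, stood at 0.24 on array 1 and -0.21 on array 2 (0.01 ± 0.22). Uba7, which activates the interferon-induced modifier ISG15, stood at 0.02 and -0.14 (-0.06 ± 0.08).

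Among the 8 E2 genes, Ube2c stood highest. Ube2c works with the anaphase-promoting complex, the ligase that destroys cyclins and securin in mitosis. Its ratio was 0.95 on array 1 and 0.82 on array 2 (0.89 ± 0.07, 1.85-fold higher in LatY136F cells), and it ranked 307th from the top of 4331 genes. The next was Ube2l3, an E2 for HECT and RING-between-RING ligases, at 0.55 and 0.58 (0.56 ± 0.01, 1.48-fold), just short of 1.5-fold on both arrays. Both genes stood above each of the other 6 on both arrays.

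The other 6 E2 genes had means from -0.21 to 0.14. Ube2g1 was the lowest, at 0.04 on array 1 and -0.46 on array 2, and its 2 probes disagreed: 1 gave -0.20 and -0.15, the other 0.27 and -0.78. Ube2b, a homologue of yeast Rad6 that acts in DNA damage tolerance, stood at -0.17 ± 0.06 and was the only one of the 6 with the same sign on both arrays. Ube2r2, a partner of cullin-RING ligases, gave -0.21 and 0.50. Ube2d3, which serves many ligases, stood at -0.03, Ube2e1 at -0.03 and Ube2j2, an enzyme of the endoplasmic reticulum membrane, at -0.02, each with opposite signs on the arrays. The median of the 8 was -0.03 by the mean of the arrays but 0.07 on array 1 alone and 0.04 on array 2 alone.

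Usp28 had the largest ratio of the 42 genes. Usp28 removes ubiquitin from targets of the ligase Fbxw7, such as Myc, and takes part in the DNA damage response. Its ratio was -2.36 on array 1 and -2.23 on array 2 (-2.29 ± 0.07, 4.91-fold lower in LatY136F cells), and it was the 6th lowest of 4331 genes. The value rests on 1 probe whose accession is not a RefSeq transcript, as for 18 of the 44 probes, so no other probe checks it.

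The other 9 deubiquitinating genes ranged from -0.39 to 0.40, and none was 1.5-fold apart on both arrays. Usp15, which restrains T cell activation in mice, was highest, at 0.20 on array 1 and 0.60 on array 2 (0.40 ± 0.20). Usp5, which takes apart free ubiquitin chains, stood at 0.25 ± 0.12. Usp1, which acts on Fancd2 and Pcna in DNA repair, stood at 0.21 ± 0.16, and Usp2 at 0.14 ± 0.03. These 4 genes were above 0 on both arrays.

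Usp40 was below 0 on both arrays, at -0.44 and -0.23 (-0.34 ± 0.10). Usp33 gave 0.20 on array 1 and -0.98 on array 2, the widest gap between the arrays of any member, and so has no direction. Usp14, which sits on the proteasome and trims chains there, gave 0.46 and -0.14, and Usp9x, a large deubiquitinating enzyme encoded on the X chromosome, gave -0.30 and 0.38. Usp8, which acts on receptors at endosomes, stood at 0.05 ± 0.07. The median of the 10 deubiquitinating genes was 0.10, and 0.14 without Usp28.

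**Figure D3:**
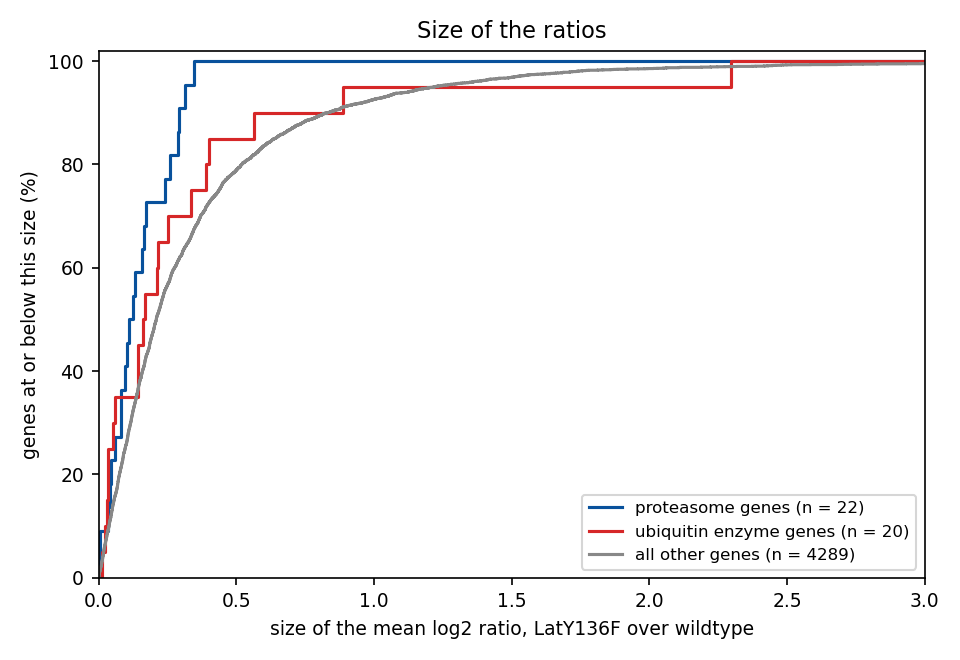
Share of genes (vertical axis, in percent) whose mean log2 ratio of LatY136F over wildtype is no larger in size than the value on the horizontal axis, for 22 proteasome genes, 20 ubiquitin enzyme genes and 4289 other genes. The proteasome curve reaches its top at 0.35, while the ubiquitin enzyme curve runs close to the other genes and ends at Usp28, at 2.29.

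The rest of the ubiquitin system was read from lists of genes outside the symbol rule. Of 10 measured E3 ligase genes of 38 listed, none was 1.5-fold apart on both arrays, and the median was 0.03. Itch, a ligase that limits T helper 2 differentiation in mice, was lowest, at -0.67 on array 1 and -0.30 on array 2 (-0.48 ± 0.18). Xiap, an inhibitor of caspases, had the highest mean but gave -0.99 and 2.27, so it has no direction. Of 5 cullin and RING scaffold genes none was called either, with a median of -0.25. Skp1, an adaptor of these ligases, stood at -0.30 ± 0.08 and Ddb1, an adaptor of cullin 4 ligases, at 0.47 ± 0.09.

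Of 6 deubiquitinating enzymes outside the Usp and Uch families, none was 1.5-fold apart on both arrays, and their median was -0.06. Otub2 stood at 1.54 on array 1 and 0.39 on array 2 (0.97 ± 0.57). Cyld, which removes chains from NF-kappa B signalling proteins, stood at -0.43 and -0.25 (-0.34 ± 0.09). None of the 4 listed ubiquitin genes was measured. Of 10 listed genes of proteasome assembly and inhibition, 2 were measured: Psmf1, an inhibitor of the proteasome, at 0.20 ± 0.13, and Nfe2l2, a transcription factor of the oxidative stress response, at -0.26 ± 0.04.

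Lists that share biology with single members were set beside them. Over all genes, 7.83% passed 1.5-fold on both arrays on the higher side and 2.93% on the lower. Beside Ube2c, at 0.89, the 21 mitosis and replication genes had a median of 0.39, and 7 of them passed 1.5-fold on both arrays, all on the higher side. Bub1, a kinase of the spindle checkpoint (1.30 ± 0.44), the proliferation antigen Mki67 (1.18 ± 0.13), the topoisomerase Top2a (1.15 ± 0.10) and the thymidine kinase Tk1 (1.13 ± 0.03) were highest. The other 14 of the 21 did not pass 1.5-fold on both arrays. Of the 21 means 19 were above 0 and 2 below: Bub1b (-0.10 ± 0.05) and Plk1 (-0.02 ± 0.15). The immunoproteasome genes, which interferon gamma induces, had a median of 0.04, while 13 interferon response genes had a median of -0.33. Of the 13, none passed 1.5-fold on the higher side and 3 did on the lower: the interferon-inducible GTPases Iigp1 (-1.52 ± 0.25), Tgtp1 (-1.07 ± 0.07) and Igtp (-0.71 ± 0.06). Of 12 antigen processing genes none was called; the median was 0.21, with the chaperone Pdia3 highest (0.59 ± 0.06) and Tapbp, which holds the class I molecule at the transporter, lowest (-0.10 ± 0.05). Whether these lists differ from the members was not tested.

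**Figure D4:**
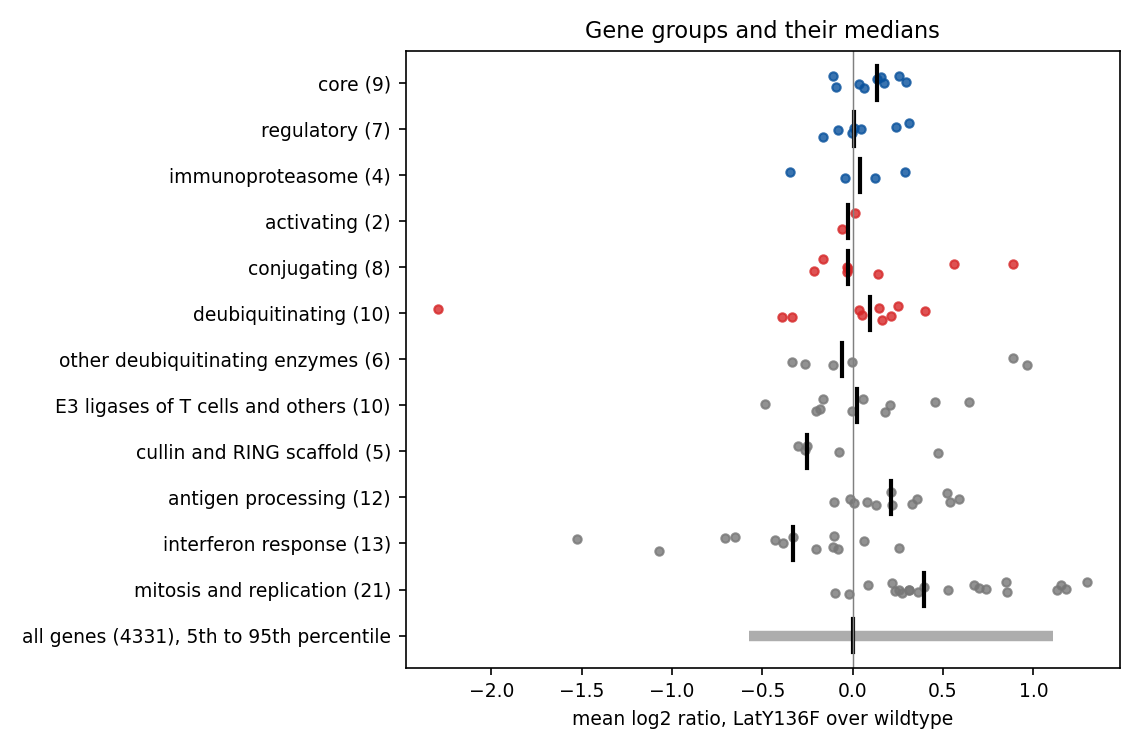
Mean log2 ratio of LatY136F over wildtype (horizontal axis) of each gene in the member groups (coloured points) and in 6 other lists (grey points), with the median of each as a black bar and the number of genes in parentheses; the grey bar spans the 5th to 95th percentile of all genes, from -0.57 to 1.11. Psme3 and Psme2b are left out. The core, regulatory and immunoproteasome medians lie at 0.13, 0.005 and 0.04, between the interferon response list at -0.33 and the mitosis and replication list at 0.39.

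Markers of other cells also differed between the RNAs. For the counts below, 2.93% of all genes were at least 1.5-fold lower on both arrays and 7.83% higher. All 13 measured B cell markers had a mean below 0 and 7 were at least 1.5-fold lower (median -1.01), and both CD8 markers were below 0. The 13 monocyte and macrophage markers had a median of 1.23, with 9 past 1.5-fold on the higher side and 0 on the lower. Of their means 10 were above 0 and 3 below: Msr1 (-0.45), Marco (-0.34) and Ctss (-0.13). All 5 neutrophil, 3 erythroid and 2 platelet markers had means above 0. Of 5 measured natural killer markers (median -0.32), 3 were below 0 on both arrays, 0 were above 0 on both and 2 changed sign. Klrd1 (-1.75 ± 0.01) was the 1 natural killer marker at least 1.5-fold lower. Dendritic cell markers (6 measured, median 0.03) went both ways. The 8 measured T cell markers had a median of -0.05, with 3 means above 0 and 5 below. Of the 8, 1 was at least 1.5-fold higher, Cd5 (0.81 ± 0.11), and 0 were that much lower on both arrays. Cd247 had the lowest mean (-0.88 ± 0.46). The part of these cells in the ratios of Usp28, Ube2c or any other member was not tested, and since the table holds no levels, neither the purity of the cells nor any marker's absence can be read from it. In bulk RNA, fewer cells of a type and less RNA per cell cannot be told apart.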

How the data were processed

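The file has a log ratio for every probe on each of 2 two-colour arrays. The authors' deposited values were read as log10 ratios of channel 2 over channel 1; for base, direction, background correction and dye normalization, the sources used here give no statement. Array 1 tops out at exactly 2, a 100-fold limit if the base is 10. Array 2, which per the labels is the reversed polarity, was multiplied by -1; as deposited the columns correlated with an r of -0.21. Ratios were multiplied by 3.32 to give log2, and the median of each array was subtracted.

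Of the 8014 probes, the platform annotation gave 1 symbol to 4654, several to 73 and none to 3287; probes of a gene were averaged, giving 4331 genes. All 42 member genes matched RefSeq (GRCm38.p6) by gene identifier and no symbol changed. Promoter windows of 250 bases before to 50 after a start were found for 33 members, 39 windows in all. Called means at least 2-fold, or 1.5-fold, the same way on both arrays; no test of the genotypes was made. Turning, centring and calling were run on simulated data. The simulated arrays were reversed with the same signs that the turning used, so this run cannot check the direction of the real arrays. Their scatter was also set smaller than that of the real arrays.

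The members and lists were chosen with earlier results of these data known. Values were given for every member; of a list outside the rule, up to 4 members past 1.5-fold on both arrays were named, or the highest and lowest where none was. Alternatives changed the centring, scaling, probes, thresholds, direction, log base and arrays used. Python 3.11.15, pandas 2.3.3 and NumPy 2.4.6 were used.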

Additional observations from a re-analysis of the deposited data

How the results depend on the processing

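Counts of members past 2-fold (none higher, 1 lower) and past 1.5-fold (1 and 1) did not change without centring, with the strongest probe per gene, without probes at exactly 0, with scaled arrays, with probes as units or with the threshold on the mean. Turning the direction gave 1 member at least 2-fold higher and 0 lower. Read as log2, the table held 0 members at least 2-fold lower and 0 at least 1.5-fold higher, since all ratios shrink. At 3-fold on both arrays Usp28 alone passed and 0 were higher. Single arrays gave 1 to 2 members at least 1.5-fold higher and 1 to 2 lower; array 2 alone added Usp15 and Usp33, and none of the single arrays added a 2-fold call.

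Single arrays gave medians of 0.0412 to 0.066 for all members and of 0.0391 to 0.0663 for the conjugating genes. By the mean of the arrays the conjugating median was -0.03. A median of means need not lie between the medians of the arrays, and 5 of the 8 conjugating genes had opposite signs. Adding Psme2b, chosen after seeing the data, turned the immunoproteasome median to -0.0404. Single arrays gave -0.01 to 0.09 for that median, 0.07 to 0.20 for the core and 0.02 to 0.16 for the deubiquitinating genes. For the regulatory genes they gave -0.04 to 0.03 and for the activating genes -0.17 to 0.13. Of these groups only the core and the deubiquitinating medians had the same sign on both arrays. Usp28 ranged from -2.36 to -2.23 and Ube2c from 0.82 to 0.95. For 68 named genes, centring, scaling, probe choice and zeros gave 272 values that use both arrays, of which 5 moved beyond the spread of the arrays, by at most 0.02. Single arrays move a gene by 0.5 times the gap between them, which is wide for genes with no direction such as Xiap (-0.99 to 2.27) and Il4 (-0.97 to 1.41). Each ratio already pairs both genotypes on an array, and with 1 biological comparison no further paired analysis was possible.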

Other observations

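Carriers that bring tagged proteins to the proteasome, and enzymes of ubiquitin-like conjugation, were read from lists outside the symbol rule. Of 5 measured shuttle and segregase genes none was 1.5-fold apart on both arrays, and the median was 0.03. Vcp, the ATPase that pulls tagged proteins out of complexes and membranes, was highest, at 0.11 on array 1 and 0.50 on array 2 (0.30 ± 0.19). Rad23b, a shuttle that also serves nucleotide excision repair, was lowest, at 0.26 and -0.29, with no direction.

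Of 5 measured genes of ubiquitin-like modification and autophagy conjugation none was 1.5-fold apart, and the median was 0.05. Atg7, the E1-like enzyme of autophagy, stood at 0.53 on array 1 and 0.46 on array 2 (0.50 ± 0.04). Pias1, a SUMO ligase, was lowest, at -0.37 on each array.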
